A study of Homo sapiens with 10 samples.

Results

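The 9 genes described here, out of 25370 in the deposited table of read counts, encode transcription factors and RNA splicing regulators of epithelial cells. They are GRHL1, GRHL2, GRHL3, OVOL1, OVOL2, ELF3, EHF, ESRP1 and ESRP2, and each was taken as the row that carries its symbol. They were followed in PEO1, an established line of high grade serous ovarian carcinoma, and in 4 lines derived from it. ABTr1, ABTr2, ABTr3 and ABTr4 are each a single clone labelled resistant to veliparib, an inhibitor of poly(ADP-ribose) polymerase. The clones had been kept without a break in 40 µM veliparib for 6 months and were off the drug for 4 to 5 days when RNA was taken. Parental PEO1 carries the genotype label WT and no drug treatment is given for it, and both clones and parental cells were grown in the same serum-containing medium and are labelled epithelial. Each of the 5 groups had 2 libraries of polyadenylated RNA, made with a kit that does not mark strand. The labels do not say that the 2 libraries came from separate cultures, so the p-values below measure the spread between libraries, which may be technical. A clone is 1 line, so a difference in it cannot be told apart from a property of the cell that founded it, and drug exposure and clonal origin differ from PEO1 together.

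Epithelial cells keep their identity through a small set of transcription factors. Grainyhead-like (GRHL) proteins bind and open enhancers of junction and polarity genes, the zinc-finger proteins OVOL1 and OVOL2 repress mesenchymal regulators such as ZEB1, and ELF3 and EHF are ETS factors found mainly in epithelia. ESRP1 and ESRP2 are RNA-binding proteins that switch exons of transcripts such as those of FGFR2, CD44 and CTNND1 to the forms that epithelial cells use. In many carcinomas these genes are lower in cells that have moved toward a mesenchymal state, in which ZEB and SNAIL proteins act on E-box letters in promoters.

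The bases upstream of 3 of these genes are shown because they differ in the letters that ZEB and SNAIL proteins are known to bind. They come from RefSeq for build GRCh38.p14, run 5′ to 3′ on the gene's own strand, and end at the base before the annotated start. Capitals mark CACCTG or its reverse complement CAGGTG. Windows for 4 of the 9 genes were found, GRHL1, GRHL3, ELF3 and EHF. All 3 windows below lie on the plus strand.
ELF3, chr1:202010337-202010586: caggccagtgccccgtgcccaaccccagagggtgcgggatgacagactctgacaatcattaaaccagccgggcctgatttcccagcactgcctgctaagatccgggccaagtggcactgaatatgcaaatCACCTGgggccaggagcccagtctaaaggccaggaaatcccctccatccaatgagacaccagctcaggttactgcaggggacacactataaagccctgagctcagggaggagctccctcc
GRHL3, chr1:24319107-24319356: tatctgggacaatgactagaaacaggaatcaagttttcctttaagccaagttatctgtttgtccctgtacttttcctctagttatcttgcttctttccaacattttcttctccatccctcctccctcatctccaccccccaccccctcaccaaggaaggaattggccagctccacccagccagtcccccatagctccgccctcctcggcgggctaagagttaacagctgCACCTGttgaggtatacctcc
GRHL1, chr2:9951443-9951692: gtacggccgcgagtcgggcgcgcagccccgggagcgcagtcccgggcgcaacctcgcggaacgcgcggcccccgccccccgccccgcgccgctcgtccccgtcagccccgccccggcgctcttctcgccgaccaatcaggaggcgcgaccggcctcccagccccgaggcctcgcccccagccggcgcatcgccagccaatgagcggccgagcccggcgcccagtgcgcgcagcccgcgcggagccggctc
ELF3 held 1 match, which began 120 bases before the start, and the GRHL3 window held 1 match, 21 bases before the start. No match lay in the GRHL1 window, in a second GRHL3 window or in both windows of EHF. Of 35116 promoter windows of 250 bases, 17.5% held the motif on either strand. The Grainyhead motif AACCGGTT, which is its own reverse complement, was in none of the 6 windows of the 4 genes and in 0.117% of all windows. The GRHL1 window was rich in CG pairs, with 45 of them, and 0.590% of all windows held at least as many, while ELF3 held 4. A match of letters is a description and does not show that a protein binds there.

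Over the mean of the 4 clones, 8 of the 9 genes were lower than in parental PEO1 at an adjusted p under 0.05 (edgeR quasi-likelihood test with Benjamini-Hochberg adjustment over 16490 genes). Of all genes tested, 8.79% were called lower in that comparison. With the replicate number as a block the same 8 were called, beside 18.2% of all genes called lower. GRHL3 was the gene not called. In the same 8 genes, all 8 clone libraries lay below both parental libraries, which held for 12.5% of all genes tested. The median log2 fold change of the 9 genes was -6.92, against 0.02 for all genes tested. Clones with 0 reads for a gene give a fitted fold change that depends on the prior count, and with the 3 genes concerned (GRHL2, OVOL1 and OVOL2) set at the ratio of their summed reads the median was -6.21. In bulk RNA, fewer cells that express a gene and less RNA per cell cannot be told apart.

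Levels below are in CPM, a gene's reads per 1000000 reads of a library whose total was scaled with a TMM factor. Without TMM factors the median log2 fold change of all genes moved by 0.23, to 0.25, and of the genes called 35.8% were lower in place of 55.1%, while the same 8 of the 9 genes were called lower. Libraries held 20640602 to 55488566 assigned reads, the fewest in ABTr2 replicate 2 and the most in ABTr2 replicate 1. The 6 epithelial markers EPCAM, CDH1, KRT7, KRT8, KRT18 and KRT19 summed to 2545 to 3414 CPM in clone libraries, against 8946 and 13681 CPM in PEO1, and 6 of 6 were called lower. CDH1, the defining adhesion molecule, was at 0.0430 to 9.56 CPM in clone libraries and at 147 and 358 CPM in PEO1, while KRT8 was at 789 to 1396 CPM in clone libraries and at 2629 and 3261 CPM in PEO1. Of 4 serous ovarian markers, 3 were tested and 2, MUC16 and WT1, were called lower. MUC16 was at 0 to 1.16 CPM in clone libraries and at 20.7 and 66.4 CPM in PEO1. WT1 was at 0.145 to 3.21 CPM in clone libraries and at 13.9 and 2.63 CPM in PEO1. PAX8, a marker of that lineage, was at 95.2 to 200.0 CPM in clone libraries and at 155.5 and 92.6 CPM in PEO1, and was not called. The 6 fibroblast markers summed to 1.93 to 16.7 CPM in clone libraries and to 8.28 and 8.63 CPM in PEO1, with COL3A1, DCN and LUM at 0 in every library. The 5 leukocyte markers summed to 3.23 to 18.6 CPM in clone libraries and to 9.64 and 19.6 CPM in PEO1, with PTPRC and CD3E under 1 CPM throughout. The 4 endothelial markers summed to 2.01 to 16.3 CPM in clone libraries and to 15.5 and 62.3 CPM in PEO1, and 1 of them, CDH5, was called lower. CDH5 alone was at 0.172 to 14.1 CPM in clone libraries and at 14.6 and 61.5 CPM in PEO1. VWF was at 0.516 to 2.06 CPM in clone libraries and at 0.0496 and 0.464 CPM in PEO1. KDR was at 0.386 to 2.28 CPM in clone libraries and at 0.372 and 0.0387 CPM in PEO1. PECAM1 was at 0.280 to 1.64 CPM in clone libraries and at 0.496 and 0.271 CPM in PEO1, and VWF, KDR and PECAM1 were not called. The 4 mesothelial markers summed to 48.0 to 193 CPM in clone libraries and to 88.7 and 222 CPM in PEO1, with 1 called lower, UPK3B, and 1 higher, LRRN4. UPK3B was at 0.645 to 2.55 CPM in clone libraries and at 11.1 and 20.6 CPM in PEO1. LRRN4 was at 6.65 to 17.6 CPM in clone libraries and at 1.02 and 0.0774 CPM in PEO1. Most of the sum was MSLN, at 38.8 to 179 CPM in clone libraries and at 72.0 and 196 CPM in PEO1. MSLN and CALB2 were not called. The part of other cell types in the differences below was not tested.

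**Figure D1:**
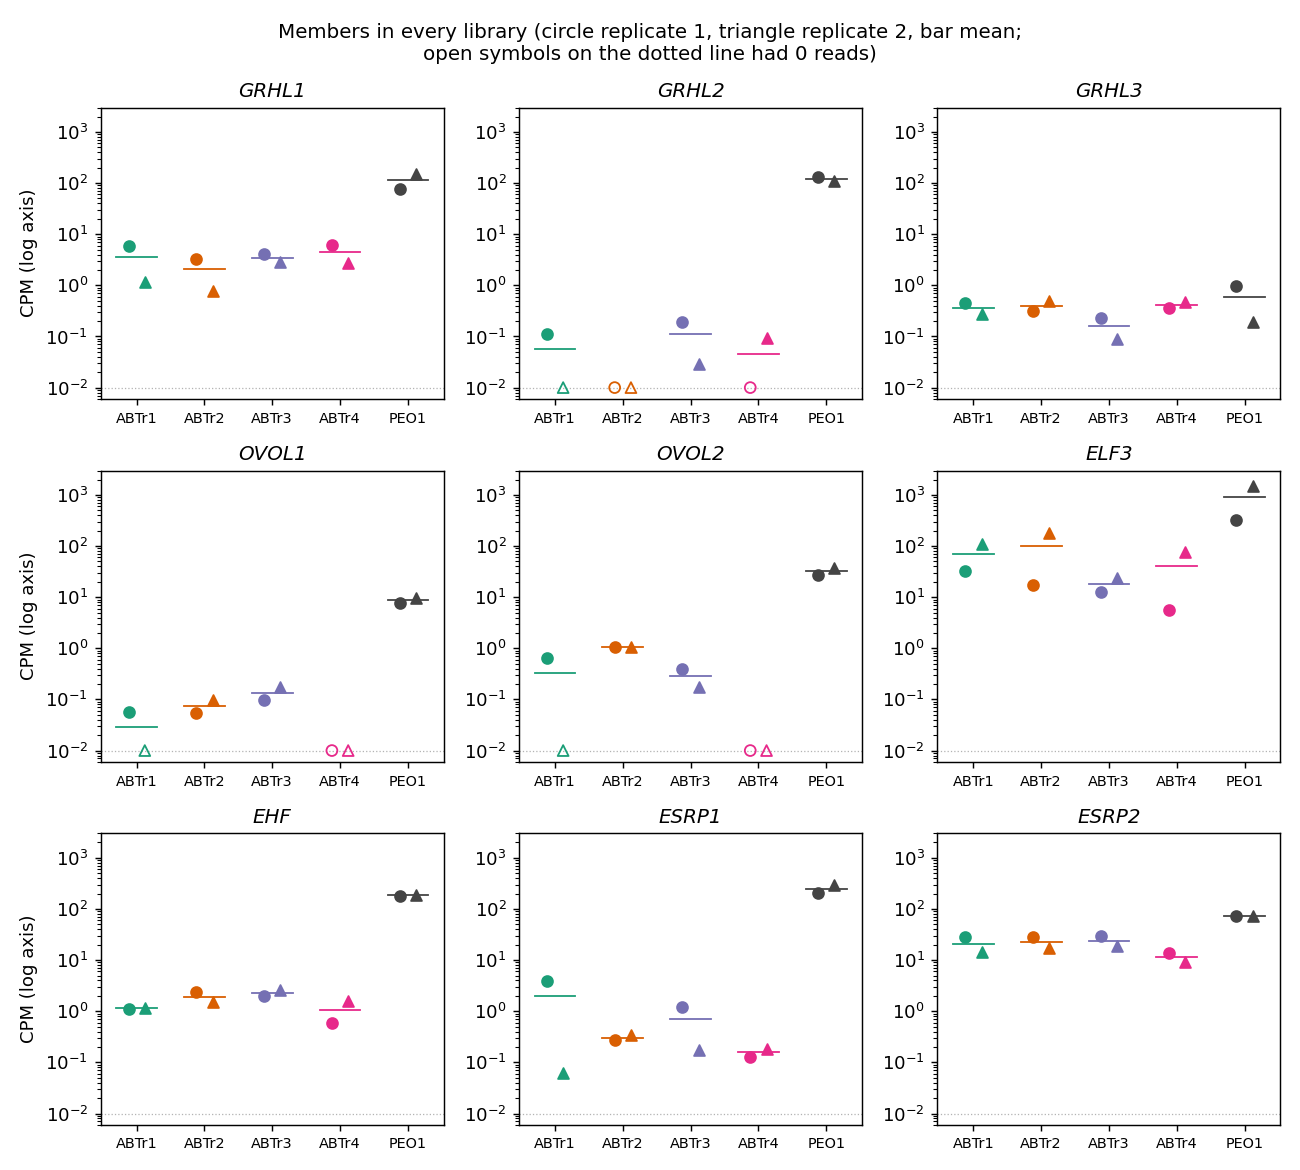
Each panel plots 1 gene's level in CPM on a log axis, with clones at the left and parental PEO1 at the right, circles for replicate 1, triangles for replicate 2, bars for the mean of the 2, and open symbols on the dotted line for 0 reads. In every panel except that of GRHL3, all 8 clone libraries lie below both PEO1 libraries.

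Of the 3 Grainyhead-like genes, GRHL1 and GRHL2 were lower in the clones and GRHL3 was not called. GRHL2, a factor that maintains epithelial junctions and represses ZEB1, is at chr8:102504668-102681952 on the plus strand (hg19). Its level was 0.113 and 0 CPM in ABTr1, 0 in both libraries of ABTr2, 0.191 and 0.0295 CPM in ABTr3, and 0 and 0.0924 CPM in ABTr4, against 132 and 110 CPM in PEO1. In reads, the 4 clones held 18 in all, against 8170 in PEO1. No read fell in 4 of the clone libraries, and no clone library came near a parental one. Set against a floor of 3 reads over its libraries, ABTr2 was at least 3116-fold lower, and the ratio in ABTr4, which had 3 reads, was 3250-fold lower (95% interval of 1112 to 15760, counting error only). GRHL2 had the third lowest fold change of the 16490 genes, fitted at -11.87 ± 0.62 on the log2 scale (SE), with an edgeR adjusted p of 8.0e-05.

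GRHL1, a close relative of GRHL2 that regulates desmosomal cadherin genes in mouse skin, is at chr2:10091792-10142412 on the plus strand (hg19). It was at 5.97 and 1.14 CPM in ABTr1, 3.34 and 0.773 CPM in ABTr2, 4.08 and 2.89 CPM in ABTr3, and 6.13 and 2.71 CPM in ABTr4, against 75.0 and 154 CPM in PEO1. The 2 groups were far apart, although replicate 2 was lower than replicate 1 in each clone and higher in PEO1. The clones averaged 3.38 ± 0.978 CPM (SD, n = 4) and PEO1 averaged 114 ± 55.6 CPM (SD, n = 2). On the log2 scale GRHL1 changed by -5.11 ± 0.56 (SE), in edgeR's test with an adjusted p of 8.7e-04.

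GRHL3, which acts in skin barrier formation and neural tube closure in mouse, is at chr1:24645812-24690970 on the plus strand (hg19) and was barely detected. Its 2 libraries had 16 and 9 reads in ABTr1, 17 and 10 in ABTr2, 12 and 3 in ABTr3, and 17 and 15 in ABTr4, against 39 and 5 in PEO1. The clone libraries, at 0.0886 to 0.483 CPM, fell between the parental values of 0.967 and 0.193 CPM in all but 1 case. Fitted in edgeR, the log2 difference of clones minus PEO1 was -0.92 ± 0.60 (SE) with an adjusted p of 0.34. Its direction rested on PEO1 replicate 1, since without that library the value was 0.65. The 2 parental libraries thus differed from each other by more than the group means did. STPG1, on the opposite strand, overlaps the span of GRHL3 but shares no exon base with it, and was at 13.9 ± 2.60 CPM in the clones (SD, n = 4) and 5.59 ± 0.0218 CPM in PEO1 (SD, n = 2), which is 1.30 as a log2 fold change at an edgeR adjusted p of 0.018.

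The OVOL genes were lower in every clone and undetected in 1 of them. OVOL1, at chr11:65554505-65564690 on the plus strand (hg19), encodes a zinc-finger repressor of epidermal and germ cells in mouse. It had 2 and 0 reads in ABTr1, 3 and 2 in ABTr2, 5 and 6 in ABTr3, and 0 in both libraries of ABTr4, against 310 and 249 in PEO1. The highest clone library was at 0.177 CPM, while PEO1 was at 7.68 and 9.63 CPM. ABTr4 was at least 222-fold lower, and the ratio in ABTr1 was 287-fold lower (95% interval of 79.0 to 2373, counting error only). OVOL1 had a fitted log2 value of -8.07 ± 0.51 (SE), with an edgeR adjusted p of 1.7e-04.

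OVOL2, a repressor of ZEB1 that acts in skin and cornea, is at chr20:18004796-18038521 on the minus strand (hg19). It was at 0.650 and 0 CPM in ABTr1, 1.07 and 1.06 CPM in ABTr2, 0.402 and 0.177 CPM in ABTr3, and 0 in both libraries of ABTr4, against 27.2 and 37.8 CPM in PEO1. ABTr2 held 81 reads of OVOL2, ABTr3 held 27, ABTr1 held 23 and ABTr4 held 0, against 2075 in PEO1. ABTr4 was therefore at least 825-fold lower and ABTr2 29.3-fold lower (95% interval of 23.5 to 37.1, counting error only). Over the 4 clones the fitted log2 value was -7.88 ± 0.75 (SE), with an edgeR adjusted p of 7.9e-04.

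Both ETS factors were lower, EHF evenly and ELF3 with a wide spread. EHF, at chr11:34642588-34684834 on the plus strand (hg19), was at 1.10 and 1.17 CPM in ABTr1, 2.38 and 1.50 CPM in ABTr2, 1.97 and 2.63 CPM in ABTr3, and 0.581 and 1.57 CPM in ABTr4, against 182 and 189 CPM in PEO1. The clones averaged 1.61 ± 0.604 CPM (SD, n = 4) and PEO1 averaged 185 ± 4.78 CPM (SD, n = 2). Its log2 fold change of -6.92 ± 0.29 (SE) had the smallest adjusted p of the 9 genes (edgeR adjusted p = 1.2e-05). EHF was also called in each clone whichever single library was left out, with an adjusted p of at most 0.035.

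ELF3, a factor induced in epithelia during differentiation and inflammation, is at chr1:201979690-201986315 on the plus strand (hg19). It was at 32.5 and 108 CPM in ABTr1, 17.6 and 179 CPM in ABTr2, 12.6 and 24.2 CPM in ABTr3, and 5.63 and 75.8 CPM in ABTr4, against 328 and 1505 CPM in PEO1. The groups did not overlap, but replicate 2 was higher than replicate 1 in each of the 5 groups, by 1.93-fold in ABTr3 to 13.5-fold in ABTr4 and by 4.59-fold in PEO1. Of all genes tested, 19.1% were higher in replicate 2 in every group. Over the 4 clones ELF3 changed by -4.27 ± 0.89 (SE) on the log2 scale, and edgeR gave an adjusted p of 0.014. Without PEO1 replicate 2 it was -2.79 and was not called (edgeR adjusted p = 0.18). In single clones ELF3 was not called, with adjusted p of 0.14 in ABTr1, 0.22 in ABTr2, 0.069 in ABTr3 and 0.098 in ABTr4. With the replicate number as a block it was called in all 4, with adjusted p of 0.0020, 0.0025, 4.8e-04 and 4.7e-04 in the same order. DESeq2, without a block, called ELF3 in all 4 clones too.

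The splicing regulators were lower to very different degrees. ESRP1, at chr8:95653364-95719694 on the plus strand (hg19), was at 3.90 and 0.0615 CPM in ABTr1, 0.273 and 0.338 CPM in ABTr2, 1.21 and 0.177 CPM in ABTr3, and 0.129 and 0.185 CPM in ABTr4, against 203 and 292 CPM in PEO1. The highest clone library was ABTr1 replicate 1, whose level stood above that of every other clone library and far below that of both parental ones. ESRP1 changed by -8.92 ± 0.84 (SE) on the log2 scale, with an edgeR adjusted p of 4.8e-04, and its summed reads were 302-fold lower (95% interval of 266 to 344, counting error only).

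ESRP2, at chr16:68262450-68270136 on the minus strand (hg19), remained well detected in the clones. It was at 27.8 and 14.1 CPM in ABTr1, 27.8 and 17.3 CPM in ABTr2, 29.8 and 18.5 CPM in ABTr3, and 14.1 and 9.27 CPM in ABTr4, against 72.5 and 72.3 CPM in PEO1. The clones averaged 19.8 ± 5.60 CPM (SD, n = 4), PEO1 averaged 72.4 ± 0.164 CPM (SD, n = 2), and the groups did not overlap. This was a log2 difference of -1.92 ± 0.29 (SE), with an edgeR adjusted p of 0.0037. Per clone it was -1.79 in ABTr1 and -2.63 in ABTr4, which were called (edgeR adjusted p = 0.036 and 0.010), and -1.68 in ABTr2 and -1.58 in ABTr3, which were not (edgeR adjusted p = 0.053 and 0.059). With the replicate number as a block ESRP2 was called in all 4 clones, and ABTr2 and ABTr3 had adjusted p of 0.0013 and 0.0015. DESeq2, without a block, called ESRP2 in all 4 clones too. In edgeR without the block, the call in ABTr4 was lost without ABTr4 replicate 2, and that in ABTr1 without either library of PEO1, ABTr1 or ABTr3. NFATC3 on the opposite strand shares 713 exon bases with ESRP2, or 17.7% of its exon length, so reads there cannot be told apart without strand. NFATC3 itself was at 25.3 to 50.9 CPM in clone libraries and at 42.6 and 42.1 CPM in PEO1, which is -0.18 as a log2 fold change at an edgeR adjusted p of 0.71.

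**Figure D2:**
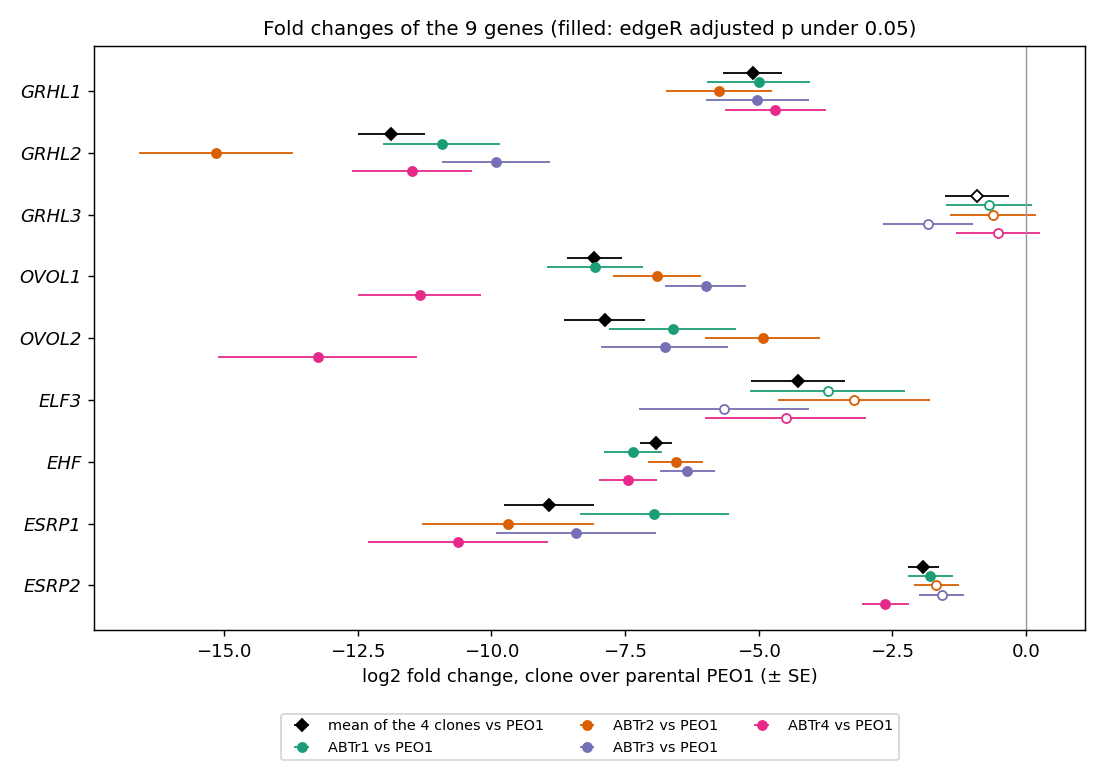
The log2 fold change over parental PEO1 is drawn with its SE for the mean of the 4 clones (diamonds) and for each clone (circles), filled where the edgeR adjusted p was under 0.05. Every point lies below 0, ESRP2 and GRHL3 lie nearest to it, and the values for GRHL2 in ABTr2 and for OVOL1 and OVOL2 in ABTr4, which had 0 reads, depend on the prior count of the fit.

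Most of the 9 genes were called lower in each clone. Of the 9 genes, 7 were called lower in ABTr1 and 7 in ABTr4, against backgrounds of 4.29% and 5.25% of all genes called lower in those clones. In ABTr2 and ABTr3, 6 were called lower in each, against 2.81% and 3.89% of all genes. All 36 fold changes of a gene in a clone were negative and 26 were called. GRHL1, GRHL2, OVOL1, OVOL2, EHF and ESRP1 were called in every clone, which held for 2.10% of all genes tested. With the replicate number as a block 8 of the 9 were called in each clone, all but GRHL3. The shares of all genes called with the block, here in either direction, were 30.1% in ABTr1, 22.1% in ABTr2, 22.6% in ABTr3 and 27.0% in ABTr4. They are therefore not comparable with the shares called lower given above. These 4 comparisons share the same 2 parental libraries, and fewer of the 26 calls were kept without PEO1 replicate 2. Fewer were also called in ABTr2, ABTr3 and ABTr4 without replicate 2 of that clone, and in ABTr3 without its replicate 1. Over all genes, too, fewer were called in each of these fits, so such losses are not particular to the 9 genes. GRHL1 lost its call in all 4 clones without PEO1 replicate 2, and in each clone without replicate 2 of that clone. EHF kept its call in all 4 clones whichever library was left out, and GRHL2 did so in all but ABTr3, where its call was lost without ABTr3 replicate 2. OVOL1 lost its call in ABTr3 without either library of ABTr3. OVOL2 in ABTr2 was not called without either library of PEO1, ABTr2 or ABTr3. Without PEO1 replicate 2, OVOL2 lost its calls in ABTr1 and ABTr3 as well, and ESRP1 lost its calls in the same clones. ESRP1 also lost its call in ABTr2, ABTr3 and ABTr4 without either library of that clone, and OVOL2 in ABTr3 likewise.

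No gene of the 9 differed among the 4 clones in the edgeR test of any difference (adjusted p of 0.84 or more), and 0.00606% of all genes did. At an unadjusted edgeR p under 0.05 there were 2 genes, OVOL1 and OVOL2, beside 5.3% of all genes, and DESeq2 and limma-voom called 0 after adjustment. With the replicate number as a block the smallest adjusted p of the 9 was 0.11 (edgeR), and 0.843% of all genes were called. Set against the mean of the other 3 clones, none of the 9 was called in any clone by edgeR, DESeq2 or limma-voom. The backgrounds were 0.0121% of genes in ABTr1 and 0 in the other clones, and with the block 2.97%, 0, 0.206% and 0.546% of genes from ABTr1 to ABTr4, with 0 of the 9 called. The unadjusted p was under 0.05 for ESRP1 in ABTr1, OVOL2 in ABTr2, EHF and OVOL1 in ABTr3, and ESRP2, OVOL1 and OVOL2 in ABTr4. Of all genes, 8.27% were under the same level in ABTr1, 3.00% in ABTr2, 4.07% in ABTr3 and 5.23% in ABTr4. With 2 libraries a clone, these values do not show that the clones are alike.

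Per kilobase of gene length, the order of the 9 genes differed between clones and parental cells. In the clones the mean levels were 17.5 ± 10.7 CPM per kilobase for ELF3 and 4.93 ± 1.39 for ESRP2, then 0.937 ± 0.271 for GRHL1 (SD, n = 4 each). EHF at 0.286 ± 0.107, OVOL2 at 0.270 ± 0.293 and ESRP1 at 0.206 ± 0.218 followed and lay within their spread of each other. GRHL3 at 0.0974, OVOL1 at 0.0199 and GRHL2 at 0.0102 CPM per kilobase came last, and OVOL1 and GRHL2 lay within the SD of OVOL1, 0.0198. In PEO1 ELF3 was also highest at 282 ± 256 CPM per kilobase (SD, n = 2), then ESRP1 at 65.0 ± 16.7, a difference within the SD of ELF3. EHF at 32.9 ± 0.848, GRHL1 at 31.7 ± 15.4, GRHL2 at 23.2 ± 2.97, OVOL2 at 20.9 ± 4.78 and ESRP2 at 18.0 ± 0.0409 formed a middle group, in which the difference between neighbours was within the larger SD of the pair. OVOL1 at 2.87 and GRHL3 at 0.170 CPM per kilobase were lowest in PEO1. As a share of the parental mean level, the clones held 57.5% for GRHL3, 27.4% for ESRP2, 6.21% for ELF3 and 2.96% for GRHL1. The other 5 genes held 0.0440% (GRHL2) to 1.29% (OVOL2).

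The ESRP gene with the higher level per kilobase was ESRP2 in all 8 clone libraries and ESRP1 in both PEO1 libraries. ESRP2 made up 87.1% to 99.5% of the summed ESRP level per kilobase in clone libraries, against 25.3% and 19.0% in PEO1. The same share for GRHL1 among the GRHL genes was 60.3% to 96.2% in clone libraries and 44.9% and 66.9% in PEO1, where 1 parental library lay inside the clone range. GRHL2 made up 0% to 2.97% of the GRHL sum in clone libraries, against 54.5% and 33.0% in PEO1. OVOL2 made up 66.0% to 97.5% of the OVOL sum in the 5 clone libraries that had reads, against 87.3% and 88.4% in PEO1, and ELF3 led EHF in all 10 libraries.

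**Figure D3:**
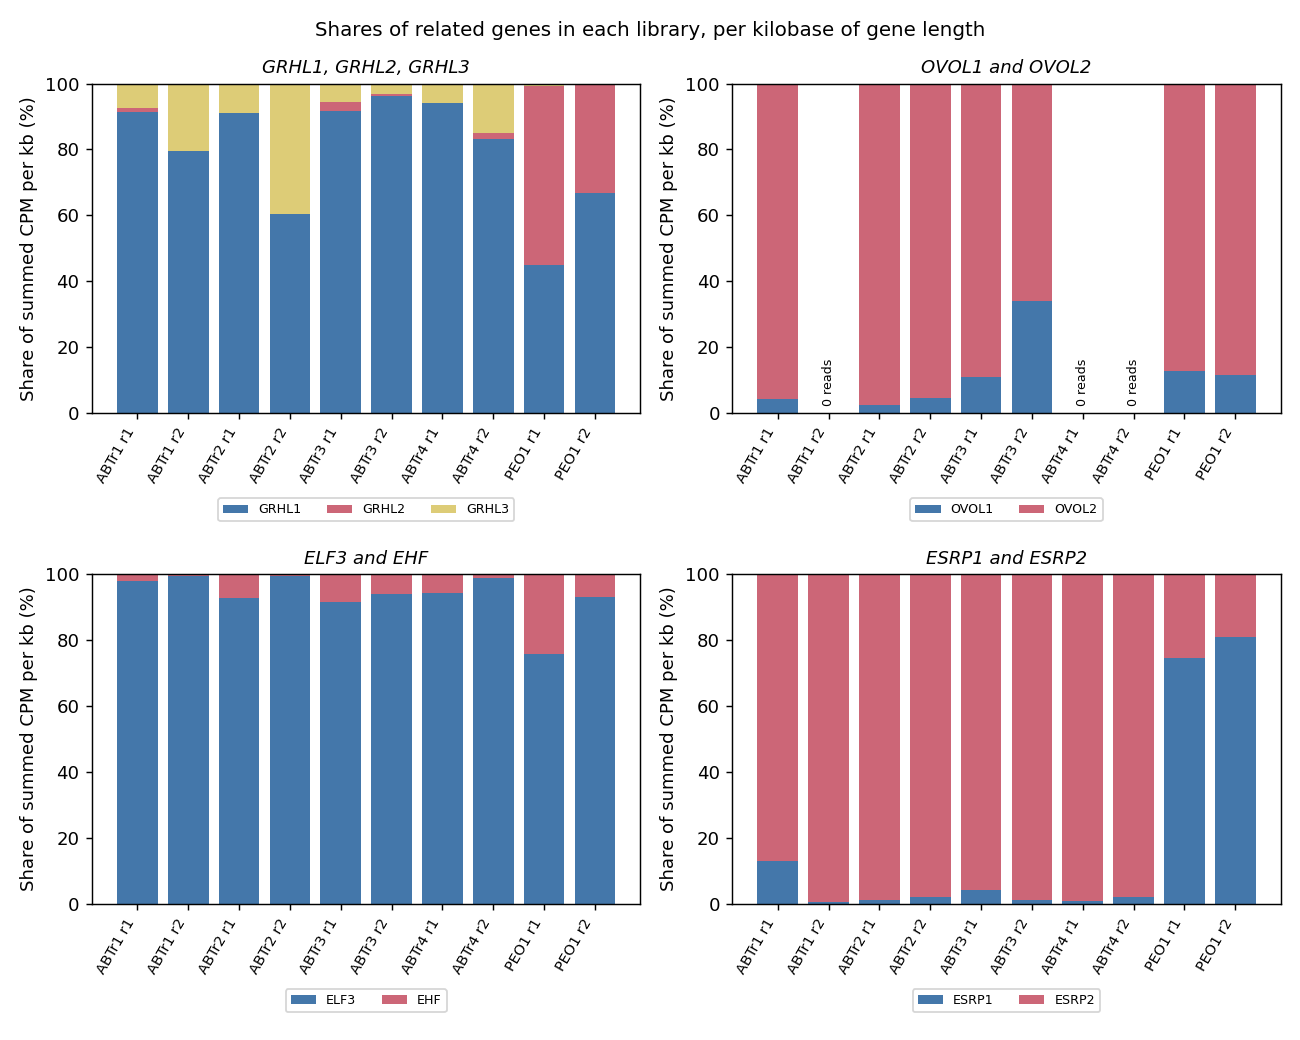
Stacked bars give each gene's share, in percent, of its family's summed CPM per kilobase in every library, with clone libraries at the left and PEO1 at the right, and r1 and r2 for the replicates. ESRP2 holds 87.1% to 99.5% of the ESRP sum in clone libraries against 25.3% and 19.0% in PEO1, and 3 clone libraries had 0 reads of both OVOL genes.

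With all libraries, kept separate, and no block, none of the 6 tested relatives of the 9 genes by protein family was called. OVOL3 had a log2 fold change of -2.46 ± 0.92 and TFCP2L1 one of -0.998 ± 0.571 (SE; edgeR adjusted p = 0.10 and 0.27). For ELF1, ELF2, ELF4 and UBP1 the log2 fold changes lay between -0.46 and -0.06 (edgeR adjusted p of 0.17 to 0.89). Of these 6 tested genes 0 were called in either direction, beside 8.79% of all genes lower and 7.17% higher, and the median was -0.41. So few genes cannot be set apart from those shares. With the replicate number as a block OVOL3 and TFCP2L1 were called lower (edgeR adjusted p = 0.025 and 0.0032), beside 18.2% of all genes. With the clone as the unit, which sums the 2 libraries of each clone, OVOL3 was called too, and no other relative was. With single libraries left out, OVOL3 was called lower without ABTr3 replicate 1, and none of the 6 was called without any other library. TFCP2, ELF5 and SPDEF did not pass the filter on low counts.

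Genes that GRHL2 or OVOL proteins are reported to act on were lower throughout. All 20 of the list were called lower, beside 8.79% of all genes, with a median log2 fold change of -3.61. With the block all 20 were called lower too, beside 18.2% of all genes. The list was chosen with earlier results of these data known, so its direction is no independent evidence. TMEM30B, a subunit of membrane lipid flippases, was at 1.57 ± 1.13 CPM in the clones (SD, n = 4) and 86.1 ± 18.0 CPM in PEO1 (SD, n = 2), which is -6.21 ± 0.31 (SE) as a log2 fold change at an edgeR adjusted p of 2.7e-05. AP1M2, the epithelial subunit of a clathrin adaptor, was at 3.13 ± 1.24 CPM in the clones and 172.2 ± 34.4 CPM in PEO1, which is -5.87 as a log2 fold change at an edgeR adjusted p of 1.8e-04. KDF1, an epidermal differentiation factor, was at 0.578 ± 0.538 CPM in the clones and 21.0 ± 2.62 CPM in PEO1. EPCAM, the epithelial adhesion molecule, was at 110 ± 36.4 CPM in the clones and 543 ± 0.606 CPM in PEO1, a smaller log2 difference of -2.37. The calls for CLDN3, CDH3 and SPINT2 were lost without PEO1 replicate 2. That for CDH3 was also lost without PEO1 replicate 1, without either library of ABTr1 or ABTr3, and with the clone as the unit, which sums the 2 libraries of each clone. That for SPINT2 was also lost without either ABTr1 library, ABTr3 replicate 1 or ABTr4 replicate 1, and in limma-voom. The other 17 were called whichever library was left out. Without TMM factors 18 of the 20 were called, all but CDH3 and SPINT2.

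Of 9 other transcription factors of epithelia, 5 were called lower and 0 higher, beside 8.79% of all genes lower, with a median log2 fold change of -1.43. TFAP2C, an AP-2 factor, was at 54.2 ± 13.2 CPM in the clones and 149 ± 20.7 CPM in PEO1, which is -1.49 ± 0.20 (SE) as a log2 fold change at an edgeR adjusted p of 0.0022. KLF5, a Krüppel-like factor of proliferating epithelium, had one of -2.53, and TP63, a factor of basal epithelium, one of -1.89 (edgeR adjusted p = 0.0035 and 0.0071). FOXA1, named after its value was seen, was also called lower, with -1.43. KLF5, TP63 and FOXA1 lost their call without PEO1 replicate 2. FOXA1 also lost it without ABTr1 replicate 1 and without either ABTr3 library, and TP63 also lost it with the clone as the unit. With the block GATA3 and TFAP2A were also called lower, which made 7, beside 18.2% of all genes.

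Several repressors of the epithelial program were called higher. Of 12 tested, 5 were higher and 0 lower, beside 7.17% of all genes higher and 8.79% lower, with a median log2 fold change of 1.10. ZEB1, a zinc-finger repressor of CDH1, was at 39.8 to 53.4 CPM in clone libraries and at 2.13 and 2.79 CPM in PEO1, which is 4.22 ± 0.26 (SE) as a log2 fold change at an edgeR adjusted p of 8.0e-05. ZEB2, its close relative, was at 20.8 to 47.1 CPM in clone libraries and at 0.694 and 1.39 CPM in PEO1, with one of 4.78 ± 0.50 (SE; edgeR adjusted p = 7.2e-04). PRRX1, a homeobox factor of mesenchyme, and SNAI2, a SNAIL family repressor, had log2 fold changes of 2.82 and 2.47 (edgeR adjusted p = 0.0033 and 0.046). TWIST1, named after its value was seen, had one of 1.21 (edgeR adjusted p = 0.047). The calls for SNAI2 and TWIST1 were lost without either PEO1 library and without several of the clone libraries. In all, 3 repressors were called higher without PEO1 replicate 2, and also without ABTr1 replicate 1, ABTr3 replicate 1 or 2, or ABTr4 replicate 2. With the block TWIST2 was also called higher and KLF8 lower. TCF4, a basic helix-loop-helix factor, was at -0.77 and not called (edgeR adjusted p = 0.21), but without PEO1 replicate 2 it was called lower.

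Hosts of exons that ESRP1 and ESRP2 splice were examined only as whole genes, since the counts hold no exon usage. Of 14 tested, 4 were called lower and 1 higher, beside 8.79% of all genes lower and 7.17% higher, with a median log2 fold change of -0.31. FGFR2, a receptor whose epithelial exon ESRP proteins include, was at 0.774 to 12.1 CPM in clone libraries and at 64.9 and 65.6 CPM in PEO1, which is -4.21 ± 0.45 (SE) as a log2 fold change at an edgeR adjusted p of 8.1e-04. FGFR1, a related receptor, was at 49.5 to 127 CPM in clone libraries and at 9.32 and 2.90 CPM in PEO1, with one of 3.98 ± 0.59 (SE; edgeR adjusted p = 0.0033). FGFR1 and FGFR2 thus differed in sign. MAGI1, a scaffold of tight junctions, had one of -1.30 and TCF7L2, a WNT pathway factor, one of -0.98 (edgeR adjusted p = 0.0070 and 0.011), and both lost their call without 1 PEO1 library, replicate 1 for MAGI1 and replicate 2 for TCF7L2. Without PEO1 replicate 2, 2 hosts were called lower. The fourth lower gene was CTNND1, p120 catenin, named after its value was seen, with -1.07 (edgeR adjusted p = 0.033), a call lost without any of several single libraries. With the block 6 were called lower, ENAH among them, beside 18.2% of all genes.

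Other splicing regulators were called lower about as often as all genes. Of 23 tested, 2 were called lower (8.70%) and 0 higher, beside 8.79% of all genes called lower and 7.17% higher. Their median log2 fold change was -0.11 with TMM factors and 0.12 without them, when 2 were called lower and 2 higher. RBM47, an RNA-binding protein of epithelia, was at 7.27 to 43.4 CPM in clone libraries and at 87.1 and 139 CPM in PEO1, which is -2.75 ± 0.28 (SE) as a log2 fold change at an edgeR adjusted p of 6.2e-04. PTBP3, a polypyrimidine tract binding protein, was at 141 ± 14.1 CPM in the clones (SD, n = 4) and 286 ± 45.0 CPM in PEO1 (SD, n = 2), with one of -1.03 (edgeR adjusted p = 0.0040), a call lost without PEO1 replicate 2. NOVA1, known as a neuronal splicing factor, and HNRNPA1, a general repressor of exons, had 1.63 and -0.57 and were not called (edgeR adjusted p = 0.052 and 0.092). With the block 5 were called lower, HNRNPA1, MBNL2 and MBNL3 besides the first 2, where 18.2% of all genes were lower, and NOVA1 was called higher. Without ABTr2 replicate 1, 4 were called lower, and without PEO1 replicate 2, 1 was.

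**Figure D4:**
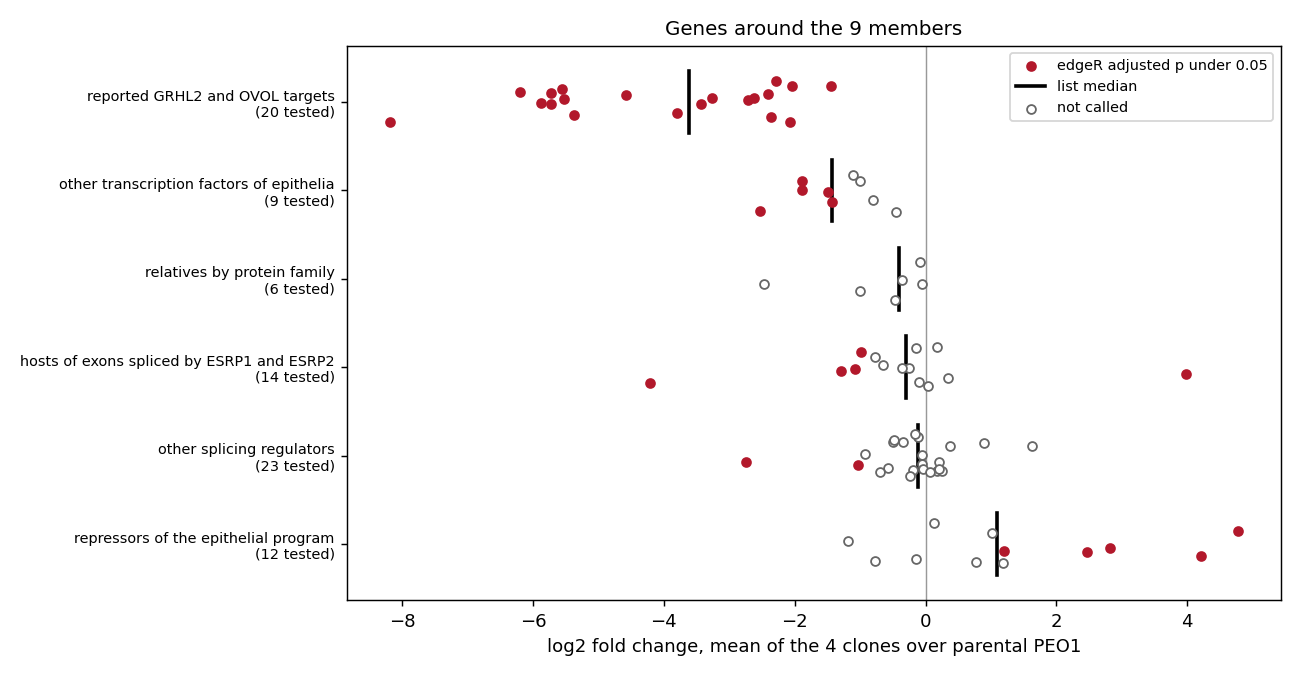
Each circle is a gene, placed by its log2 fold change of the mean of the 4 clones over parental PEO1, with 1 list a row, red where the edgeR adjusted p was under 0.05 and a black bar at the list's median. All 20 reported GRHL2 and OVOL targets lie below 0, while 5 repressors of the epithelial program lie above 0 as called genes.

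Genes beside the 9 on the chromosome were called at rates near those of all genes. Of the 54 nearest tested genes, 3 on either side of each, 6 were called lower and 3 higher, with a median log2 fold change of 0.00, beside 8.79% and 7.17% of all genes. LOC100288748, which begins 1.67 kb from ESRP1 and is not otherwise annotated here, was at 0.342 ± 0.0719 CPM in the clones (SD, n = 4) and 2.11 ± 0.461 CPM in PEO1 (SD, n = 2), which is -2.62 ± 0.34 (SE) as a log2 fold change at an edgeR adjusted p of 0.0018. Beside GRHL1, KLF11 had a log2 fold change of -0.76 (edgeR adjusted p = 0.024) and TAF1B one of 0.41 (edgeR adjusted p = 0.27). CYS1, the next gene beyond KLF11 and named after its value was seen, had the largest change of the 54. It was higher, at 4.08 ± 0.93 (SE; edgeR adjusted p = 0.020), with 1.71 ± 0.83 CPM in the clones (SD, n = 4) and 0.0883 ± 0.0154 CPM in PEO1 (SD, n = 2). Beside GRHL2, NACAP1 had -0.36 and NCALD -1.12 (edgeR adjusted p = 0.52 and 0.17). The neighbours of GRHL3 were IFNLR1 with 0.08 (edgeR adjusted p = 0.86) and STPG1, given above.

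Beside OVOL1, AP5B1 had a log2 fold change of -0.66 and CFL1 one of 0.17 (edgeR adjusted p = 0.15 and 0.66), and beside OVOL2, MGME1 had 0.63 and PET117 0.55 (edgeR adjusted p = 0.24 and 0.28). ELF3 lay between RNPEP with 0.15 and GPR37L1 with -0.36 (edgeR adjusted p = 0.63 and 0.79). EHF lay between CAT with -0.14 and APIP with -0.20 (edgeR adjusted p = 0.86 and 0.66). DPY19L4, on the other side of ESRP1, had 0.10 (edgeR adjusted p = 0.87), and PLA2G15, next to ESRP2, had 0.63 (edgeR adjusted p = 0.11). With the block AP5B1 was called lower and MGME1 and PLA2G15 higher (edgeR adjusted p = 0.028, 0.021 and 0.014). None of these neighbours other than LOC100288748 had a log2 fold change below -2.

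**Figure D5:**
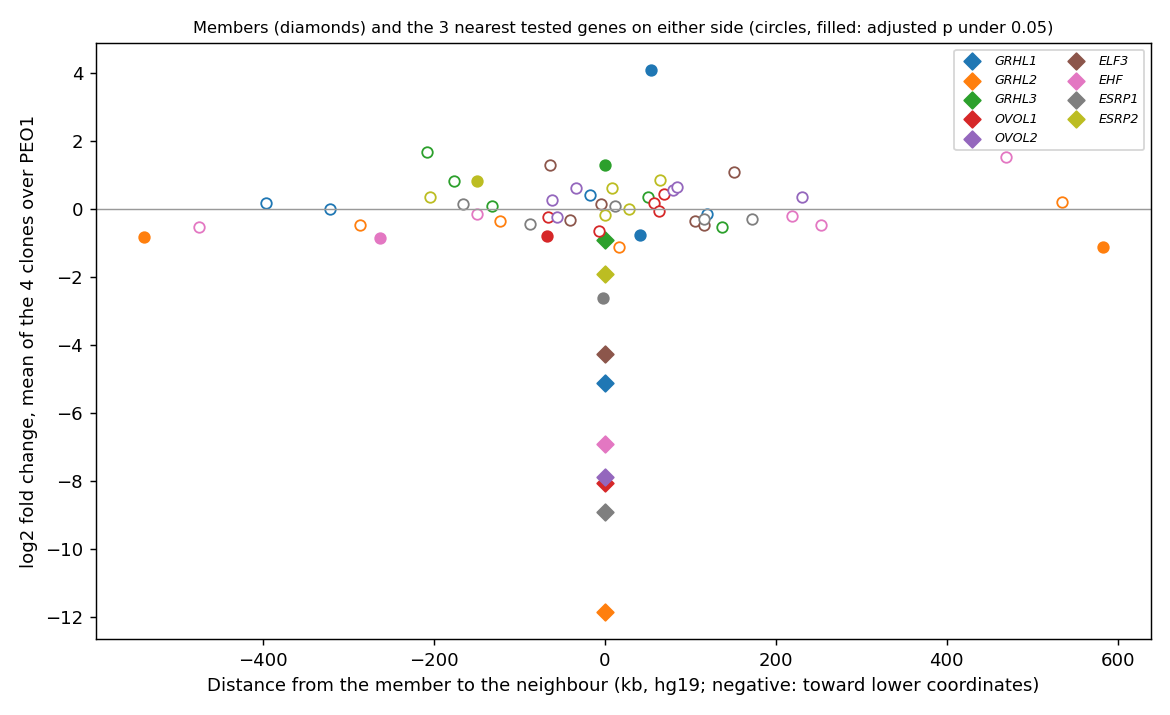
The log2 fold change of the mean of the 4 clones over parental PEO1 is plotted against the distance in kilobases from each gene (diamonds at 0) to its 3 nearest tested genes on either side (circles in the same colour, filled where the edgeR adjusted p was under 0.05). The 54 neighbours have a median of 0.00, and the gray circle just left of ESRP1 at -2.62 is LOC100288748.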

How the data were processed

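The deposited table holds counts of sequenced reads per gene, made by the authors; the submitters' processing notes name build hg19, the aligner TopHat2 2.0.14, and featureCounts 1.4.6 from Subread, and strand and multiple-match settings are not given in the sources used here. It was matched to the samples by library title, and 0 columns were left over. The sample descriptions number the clones otherwise, as 4, 1, 2 and 3 for ABTr1 to ABTr4 in that order; clone names here follow the titles. The design text names 15 samples and 3 independent experiments, of which 10 libraries were analysed here.

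The 9 genes, the gene lists and the tests were chosen with earlier results of these data known. Counts were fitted with edgeR 4.0.16 in R 4.3.3 (limma 3.58.1, DESeq2 1.42.0 for alternatives; tables with Python 3.11.15, pandas 2.3.3, scipy 1.17.1 and matplotlib 3.10.9). Genes with low counts were removed with filterByExpr by group, which kept 16490 of 25370 genes and all 9 described here. TMM factors, 1 mean per group, the quasi-likelihood F test and Benjamini-Hochberg adjustment over all genes tested were used, with 5 residual degrees of freedom and a call at 0.05. The SE is the log2 fold change divided by the square root of F. The mean of the 4 clone means, each clone, any difference among clones and each clone against the other 3 were tested. CPM used totals scaled by TMM, and CPM per kilobase used the deposited gene length. SDs of the clones are over 4 clone means. No library pair agreed within counting noise. The code was checked on simulated counts.

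Same-numbered libraries deviated together: over the 10 pairs of groups the correlation of their deviations was 0.28 to 0.731, above 0.1 in each. The numbers come from the library titles, which do not say what a number shares. A fit with the number as a block had 4 residual degrees of freedom and a biological coefficient of variation of 0.235, against 0.368 without it.

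Of each list, up to 4 genes with the smallest adjusted p were named, all relatives by family, the nearest tested neighbour on either side and the 3 most similar profiles. A few genes of the lists are counted but not reported by name here. KDF1 was matched to its listed older symbol through RefSeq. Genes spanning over 3 Mb, which hold several loci under 1 name, were not used as neighbours, a choice made after the data were seen. Alternatives were other tools, no TMM factors, no filter, the compared groups alone, the clone as the unit, the block and each library left out. Intervals of read ratios and floors of 3 reads cover counting error only.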

Additional observations from a re-analysis of the deposited data

How the results depend on the processing

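With 2 libraries a group, leaving out 1 gives that group a lone library, assumed to vary like the others. In the mean of the clones, each of these fits called fewer of all genes than the fit with all libraries. Most of them did so in single clones too. Over the libraries left out in turn, 7 to 8 of the 9 genes were called in the mean of the clones. The calls in single clones came to 16 to 25 in all, with 3 to 7 in ABTr1, 3 to 6 in ABTr2, 1 to 7 in ABTr3 and 4 to 7 in ABTr4; 0 were called among clones in each case, and 28 to 39 of the list genes were called, against 37 with all libraries. GRHL3 changed sign without PEO1 replicate 1: with single libraries left out its log2 fold change ran from -1.62 to 0.65 in the mean, -1.42 to 0.86 in ABTr1, -1.30 to 0.95 in ABTr2 and -1.21 to 1.04 in ABTr4. For the other 8 genes, 127 of 128 values of the mean over all alternatives kept their direction and side of the threshold, and ELF3 without PEO1 replicate 2 did not. In single clones 447 of 512 did, 42 lost a call, 23 gained one and 0 reversed. With the replicate number as a block 32 gene and clone pairs were called in place of 26, namely ELF3 in 4 clones and ESRP2 in ABTr2 and ABTr3, and no other call of the 9 genes changed. Over all genes in the mean of the clones, 2631 were called as reported, 5699 with the block, 4072 with DESeq2 and 918 without PEO1 replicate 2. In ABTr1, ABTr2, ABTr3 and ABTr4, 1611, 1008, 1216 and 1602 genes were called, against 4956, 3640, 3722 and 4450 with the block, 3175, 2488, 2526 and 3118 with DESeq2, and 699, 78, 659 and 447 with the compared groups alone. With 5 neighbours on either side, 8 of 90 were called lower and 7 higher, beside 8.79% and 7.17% of all genes. With a prior count of 0.5, 15 of the 27 most similar profiles stayed. Few reads limit GRHL3 everywhere, and GRHL2, OVOL1 and OVOL2 in the clones, to bounds or wide intervals.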

Other observations

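For each of the 9 genes, the 3 tested genes with the most similar profile were found by the root mean square difference of log2 CPM, centred on its mean, over the 10 libraries. This is a description with no test, since libraries of a clone share their source, and it says nothing of shared function or control. ESRP2 had the nearest neighbour of all, DSP (desmoplakin, a desmosome protein), at a difference of 0.259, followed by RIMS2 and CCSER1. DSP was at 180 ± 75.3 CPM in the clones (SD, n = 4) and 499 ± 16.5 CPM in PEO1 (SD, n = 2). ELF3 was closest to PLXDC2 at 0.393, then GPR110 and KLK10, a kallikrein protease. GRHL1 was closest to SPNS2, a transporter of sphingosine-1-phosphate, at 0.469, then TNNI1 and MACC1.

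GRHL2 and ESRP1 had the same nearest pair, IL1R2, a decoy receptor of interleukin 1, and TMPRSS4, a membrane serine protease. The differences of IL1R2 were 0.871 from GRHL2 and 0.827 from ESRP1, and VGLL1 and S100A14 came next for GRHL2 and for ESRP1 in turn. OVOL1 was closest to AP1M2 at 0.516, then to EHF at 0.544 and PROM2, and EHF was closest to OVOL1, then RBBP8NL and ALDH3B2. OVOL2 had no close profile: C1orf116, AP1M2 and GALNT3 were nearest, at 1.20 or more. GRHL3 was nearest to HSH2D, MAP3K14 and MXRA8 at 0.401 to 0.415.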
